A study of Mus musculus with 11 samples.

Results

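Long-chain fatty acids reach the inside of a liver cell through membrane proteins and are then carried in the cytosol by small binding proteins. The genes examined here encode these proteins and were chosen by name from that pathway. They are the receptor *Cd36*, the transporters *Slc27a1*, *Slc27a2*, *Slc27a4* and *Slc27a5*, and the binding proteins *Fabp1*, *Fabp2*, *Fabp4*, *Fabp5* and *Fabp7*. Of these 10 genes, 9 had a row among the 13669 genes of the count table. *Fabp7* was not analysed here. All 9 passed the filter on low counts (over 10 reads in 5 livers or more) and were among the 13334 genes tested.

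CD36 is a scavenger receptor that binds long-chain fatty acids and oxidized lipoproteins. In the liver it is known as a target of several nuclear receptors. The SLC27A proteins, also called fatty acid transport proteins, combine uptake with the activation of fatty acids to their CoA esters, and in hepatocytes SLC27A2 and SLC27A5 are the main forms. FABP1 is the abundant fatty acid carrier of hepatocytes, whereas FABP4 and FABP5 are better known from adipocytes, macrophages and endothelium.

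The samples were livers of wild-type C57BL/6J mice on regular chow, all male. The mice were given a recombinant adeno-associated virus (rAAV) of a liver-tropic serotype with the liver-specific promoter LP1. In 6 mice it drove a tough decoy RNA (AAV-TuD), a hairpin that binds *miR-541* at one site and *miR-379* at the other, and in 5 mice a negative control sequence (AAV-NC). The virus and the promoter were therefore shared by both groups, and the groups differed in the expressed RNA. The age of each mouse and the time after the injection are not given in the labels. In the paper's oligonucleotide list, the AAV-NC insert carries the sequence of its control miRNA, not that of its control decoy. The groups therefore also differ in the kind of RNA expressed. The comparison of AAV-TuD with AAV-NC asks which liver transcripts differ with the decoy, which represses these miRNAs and with them the *miR-379/miR-410* cluster.

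Mature miRNAs pair with target transcripts mainly through bases 2 to 8 (the seed). Both mature sequences are given here from RefSeq, with the seed in capitals, because the search of the 9 transcripts for matches rests on these letters. They lie on the plus strand of chromosome 12 (GRCm38.p6), at chr12:109709065-109709085 for *miR-379-5p* and chr12:109742422-109742446 for *miR-541-5p*.
mmu-miR-379-5p: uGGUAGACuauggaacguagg
mmu-miR-541-5p: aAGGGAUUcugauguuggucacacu
The DNA letters that pair with these seeds are GTCTACC and AATCCCT. Neither stood on the sense strand of the longest annotated 3′ UTR, or of the coding sequence, of any of the 9 genes. Only these exact letters were searched, not other kinds of pairing, and no other miRNA of the cluster was searched. The 5′ UTR was not searched either. The paper's own prediction, made with miRWalk, differs for *Cd36*. It lists *miR-379* for the coding sequence and 3′ UTR of *Cd36*, *miR-541* for its 5′ UTR and coding sequence, and other miRNAs of the cluster. The search here therefore does not decide whether *Cd36* is a target. Among 10965 genes with an annotated 3′ UTR, 5.18% held the *miR-379-5p* match and 8.92% the *miR-541-5p* match in the UTR, and 7.88% and 7.51% held them in the coding sequence. Except for *Cd36* (1660 bases) and *Slc27a4* (1789 bases), the 3′ UTRs of the 9 genes were shorter than the median of 1208 bases. They ranged from 69 bases in *Fabp1* to 649 bases in *Slc27a1*. The miRNAs themselves were not analysed here.

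Liver RNA was measured by sequencing the 3′ end of polyadenylated transcripts, and the deposited counts of reads per gene summed to between 8148531 and 12043959 per liver. Levels are given as CPM, the reads of a gene relative to the TMM-scaled library size. The *Mup* genes, for major urinary proteins, took 38.6% of the reads in AAV-NC 7, 30.9% in AAV-TuD 3 and 28.4% in AAV-TuD 5, against 8.09% to 18.7% in the other 8 livers. Results that change without these 3 livers are given both ways. In bulk liver, fewer cells of a type and less RNA per cell cannot be told apart.

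*Cd36* rose with AAV-TuD. *Slc27a1* was also past the threshold upwards, but it entered the test through the AAV-TuD livers alone, so that its direction was set by the filter and its values are a description. The other 7 genes did not pass the test in either direction. An adjusted p under 0.05 (edgeR, quasi-likelihood, Benjamini-Hochberg over the 13334 genes) was thus reached upwards by *Cd36* and *Slc27a1* and downwards by 0 of the 9. Of all genes tested, 7.24% were higher and 4.33% lower (11.6% in either direction), and the 2 upward calls are not read against this share, since 1 of them had its direction set by the filter. At an unadjusted p under 0.05, *Slc27a2*, *Fabp1* and *Fabp5* were also lower and *Fabp4* higher. DESeq2 called 0 of the 9 lower, and limma-voom 1, *Fabp5*. Over all genes, the log2 fold change had a median of -0.0024.

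**Figure D1:**
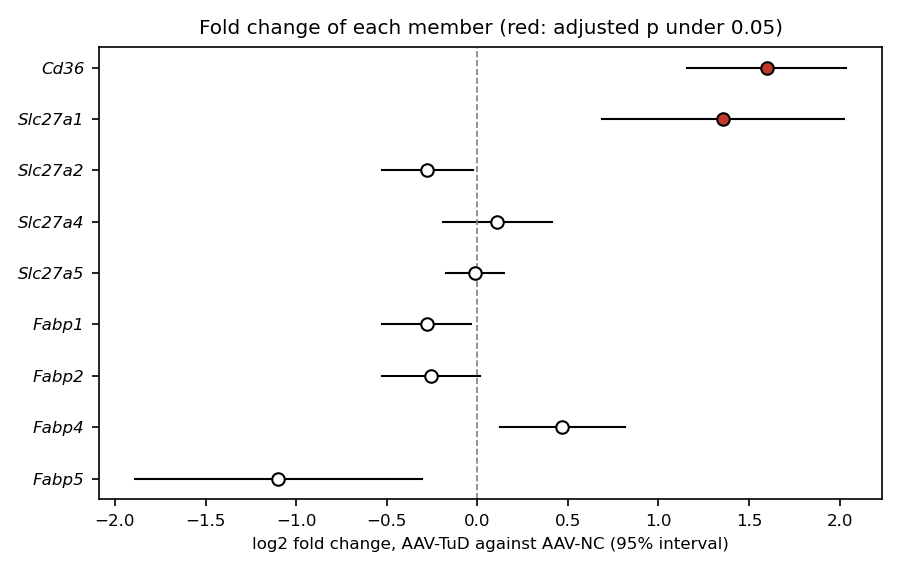
Log2 fold change of AAV-TuD against AAV-NC for the 9 genes, with 95% intervals; filled red points have an adjusted p under 0.05. *Cd36* at 1.6 and *Slc27a1* at 1.36 lie to the right of 0, *Fabp5* at -1.10 has the widest interval, and *Slc27a5* lies at -0.012.

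*Cd36* (ENSMUSG00000002944; GRCm38, chr5:17781690-17888801, minus strand) showed a clear separation of the groups. The AAV-NC livers had 5.13, 7.08, 9.55, 10.03 and 11.3 CPM, and the AAV-TuD livers had 15.8 CPM at the lowest, a median of 27.7 and 32.3 at the highest. Every AAV-TuD liver thus lay above every AAV-NC liver, as for 4.11% of the genes tested (7.39% were without overlap in either direction and 3.28% lower). The fold was 3.03 (95% interval 2.23 to 4.11; adjusted p = 0.000337 in edgeR). These levels rest on 41 to 103 reads per AAV-NC liver and 149 to 383 per AAV-TuD liver.

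Within each group, *Cd36* was lowest in the livers of high *Mup* share. AAV-NC 7 was the lowest of its group, and AAV-TuD 5 and AAV-TuD 3 were the lowest of theirs. Over the 11 livers, the deviations of log2 CPM from the group means had a Pearson r of -0.86 with log2 *Mup* share, as a description. With log2 *Mup* share as a covariate, the log2 fold change of *Cd36* was 1.39 (adjusted p = 2.02e-05 in edgeR), and it lay between 1.46 and 1.71 when any liver was left out. The genes whose deviations followed those of *Cd36* most closely, among 8371 genes with 50 reads or more on average, were *Bche* (r = 0.96), a plasma cholinesterase made in the liver, *Dsp* (r = 0.95), a desmosome protein, and *Cnot9* (r = 0.91), a subunit of a deadenylase complex. None of the 3 passed the test between the groups, with log2 fold changes of 0.23, 0.031 and 0.12.

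*Slc27a1* (ENSMUSG00000031808; chr8:71568882-71587302, plus strand) encodes the transporter best known from muscle and fat. Its reads were few. AAV-NC livers had 2, 4, 5, 6 and 10 reads, and AAV-TuD livers between 11 and 27, so that no AAV-NC liver but every AAV-TuD liver exceeded the 10 reads of the filter. The levels were 0.604 ± 0.279 CPM (SD, n = 5) with AAV-NC and 1.59 ± 0.41 CPM (SD, n = 6) with AAV-TuD, without overlap. The fold was 2.57 (95% interval 1.62 to 4.07; adjusted p = 0.0118 in edgeR), and a gene that passes the filter through its higher group alone is bound to show a difference of this sign. Bases 400 to 600 of the last 600 of its transcript are similar, at 85% to 97.3% identity over 75 to 201 bases, to transcripts of 2730 other genes. How reads from such a stretch were counted is not given in the sources used here, so this level is uncertain. Without the 3 livers of high *Mup* share it was not tested, since 4 livers with over 10 reads were left where the filter requires 5.

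The other transporters did not pass the test. *Slc27a2* (ENSMUSG00000027359; chr2:126552407-126588243, plus strand) activates very long-chain fatty acids. The AAV-NC livers had 272, 280, 288, 333 and 336 CPM, and the AAV-TuD livers had 186 at the lowest, a median of 245 and 308 at the highest. Of the AAV-TuD livers, 4 lay below all AAV-NC livers and 2 within their range. The log2 fold change was -0.28 ± 0.12 (SE), with a 95% interval of -0.53 to -0.025 and an adjusted p of 0.148 in edgeR. Its partners in the peroxisome, where very long and branched chains are shortened, gave no call in either direction among 12 genes tested, at a median log2 fold change of 0.015.

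*Slc27a5* (ENSMUSG00000030382; chr7:12988346-12998192, minus strand) also makes the CoA esters of bile acids for conjugation. It was the steadiest of the 9 genes. The AAV-NC livers had 218.5, 222, 235, 238 and 268.5 CPM, and the AAV-TuD livers had 209.6 at the lowest, a median of 235 and 264 at the highest. The highest of the 11 livers was 1.28 times the lowest. All AAV-TuD livers but the lowest lay within the AAV-NC range, and the 95% interval of the fold was 0.886 to 1.11, centred on 0.992 (adjusted p = 0.944 in edgeR). In the bile acid list around it, 1 of 9 genes was lower, *Cyp27a1*, the sterol 27-hydroxylase (log2 fold change -0.44 ± 0.086, SE; adjusted p = 0.00488), and the list's median was -0.28. *Slc27a4* (ENSMUSG00000059316; chr2:29802634-29817522, plus strand), a transporter found in many tissues, had 7.53 to 12.9 CPM with AAV-NC and 8.55 to 12.8 CPM with AAV-TuD. Its fold of 1.08 had a 95% interval of 0.876 to 1.33 (adjusted p = 0.682 in edgeR).

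**Figure D2:**
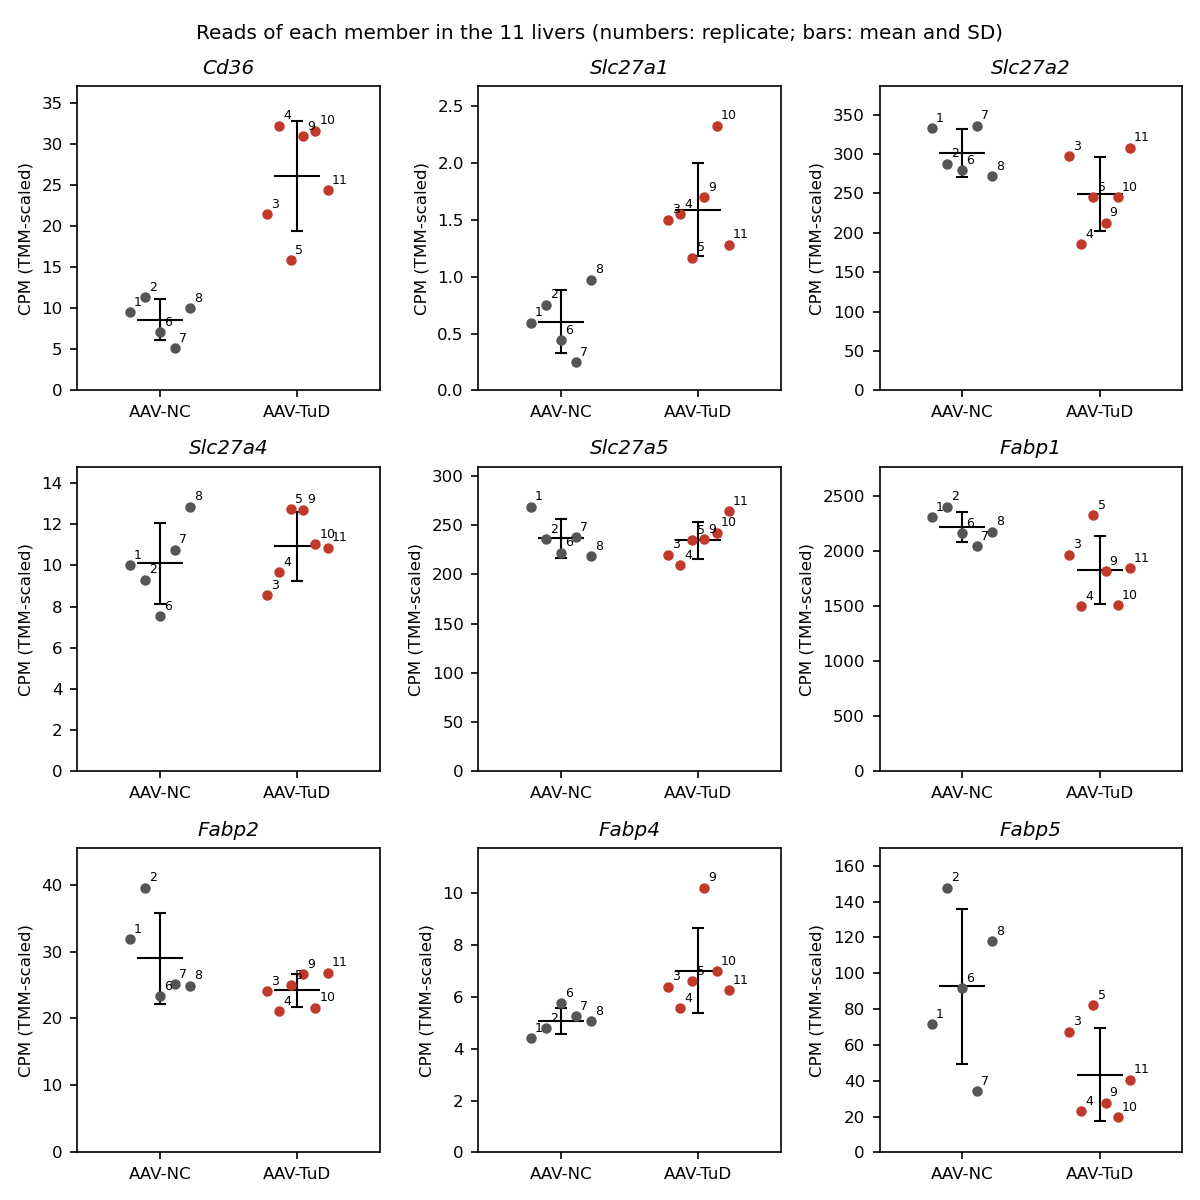
CPM on TMM-scaled library sizes in each of the 5 AAV-NC livers (grey) and 6 AAV-TuD livers (red), 1 panel a gene, with the mean and SD as bars and the replicate number beside each point; each axis starts at 0. The groups separate for *Cd36* and *Slc27a1*, overlap at similar means for *Slc27a4* and *Slc27a5*, and spread most for *Fabp5*, from 19.7 to 148 CPM.

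Of the binding proteins, none passed the test. *Fabp1* (ENSMUSG00000054422; chr6:71199827-71205023, plus strand) had by far the most reads of the 9 genes, 16313 in the liver with the fewest. The AAV-NC livers had 2042, 2159, 2175, 2307 and 2401 CPM, and the AAV-TuD livers had 1502 at the lowest, a median of 1828 and 2327 at the highest. AAV-TuD 5 alone reached into the AAV-NC range, and the other 5 AAV-TuD livers lay below it. The log2 fold change was -0.28 ± 0.12 (SE; 95% interval -0.53 to -0.032; adjusted p = 0.136 in edgeR). Without AAV-TuD 5 it was -0.36, with an adjusted p of 0.0468, and without the 3 livers of high *Mup* share -0.44, with an adjusted p of 0.0195.

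*Fabp1* is a classical target of PPAR-alpha, which binds direct repeats of a hexamer with a spacer of 1 base. RefSeq windows around the start were at hand for 6 of the 9 genes. The hexamer AGGNCA, repeated after 1 base of any kind and searched on both strands, stood in the window of *Fabp1* and in none of the other 5 genes, and in 0.381% of 32851 windows. The match is on the minus strand at chr6:71199812-71199824 (GRCm38.p6), 67 bases before the RefSeq start, and is shown in capitals in the plus-strand sequence because it is the only such match in the windows of these 6 genes.
Fabp1 promoter: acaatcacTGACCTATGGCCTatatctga
Such a match describes letters and is not a measured site. Other targets of PPAR-alpha, listed without the 9 genes, were higher in 2 of 21 cases and lower in 0, at a median log2 fold change of 0.011. The 2 were *Vnn1*, a pantetheinase (log2 fold change 1.30 ± 0.27, SE; adjusted p = 0.00629 in edgeR), and *Pdk4*, a kinase that restrains pyruvate oxidation (0.94 ± 0.28, SE; adjusted p = 0.0443 in edgeR). *Pdk4* had 14 reads a liver on average, near the filter, which may have set part of its direction. With each liver left out, the count called higher in this list ran from 1 to 4. The list leaves out *Acot2*, counted below with the thioesterases, so its count depends on how it was written.

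*Fabp2* (ENSMUSG00000023057; chr3:122895072-122899506, plus strand), the intestinal form, had 23.4, 24.9, 25.2, 31.9 and 39.5 CPM in the AAV-NC livers and from 21.1 to 26.9 CPM, with a median of 24.5, in the AAV-TuD livers. AAV-NC 1 and AAV-NC 2 stood above all others, and the rest of the 2 groups overlapped. The log2 fold change was -0.26 ± 0.13 (SE; adjusted p = 0.219 in edgeR), and -0.12 without AAV-NC 2. An antisense gene on the opposite strand, *4933405D12Rik*, overlaps it and has no values here, as does *Gm26697* for *Slc27a2*. No gene of the enterocyte list (*Vil1*, *Alpi*, *Lct*, *Sis*, *Cdx1*, *Cdx2*) was analysed here.

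*Fabp4* (ENSMUSG00000062515; chr3:10204088-10208576, minus strand), the adipocyte and macrophage form, had 4.42, 4.78, 5.06, 5.26 and 5.76 CPM in the AAV-NC livers. The AAV-TuD livers had 5.56 CPM at the lowest, a median of 6.49 and 10.2 at the highest. The lowest AAV-TuD liver lay within the AAV-NC range and the other 5 above it, with AAV-TuD 9 apart from the rest. The log2 fold change was 0.47 ± 0.16 (SE; 95% interval 0.13 to 0.81; adjusted p = 0.0725 in edgeR), and 0.33 without AAV-TuD 9. Of the adipocyte list, *Adrb3*, the beta-3 adrenergic receptor, was tested and did not pass (4.07 ± 1.69 CPM (SD, n = 5) with AAV-NC, 7.08 ± 2.22 CPM (SD, n = 6) with AAV-TuD), and the other 6 genes were not analysed here.

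*Fabp5* (ENSMUSG00000027533; chr3:10012548-10016607, plus strand), the epidermal form, had the largest coefficient of variation of the 9 genes in each group, 46.8% among AAV-NC and 59.2% among AAV-TuD livers. The AAV-NC livers had 34.3, 71.5, 91.9, 118 and 148 CPM, and the AAV-TuD livers had 19.7, 23.1, 27.9, 40.6, 67.4 and 82.3 CPM. All 6 AAV-TuD livers lay under the AAV-NC median, and 3 lay below every AAV-NC liver. In each group the livers nearest to the other group were those with a high *Mup* share, AAV-NC 7 at 34.3 CPM and AAV-TuD 3 and AAV-TuD 5 at 67.4 and 82.3 CPM. The fold was 0.467 (95% interval 0.270 to 0.810) and the adjusted p was 0.0686 in edgeR.

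Whether *Fabp5* passed the test depended on which livers were used. Its log2 fold change of -1.10 became -1.31 without AAV-NC 7 (adjusted p = 0.0281), -1.27 without AAV-TuD 3 (adjusted p = 0.0418), -1.38 without AAV-TuD 5 (adjusted p = 0.0268) and -1.94 without all 3 (adjusted p = 0.000374 in edgeR). Leaving out any of the other 8 livers gave no call. With log2 *Mup* share as a covariate it was -1.10, with an adjusted p of 0.0515. The part of the *Mup* share in these values was not tested beyond these fits. Processed pseudogenes of *Fabp5* share up to 98.2% of bases 1 to 113 of its last 600, and the 1 with a row in the table, *Gm6166*, had 6.18% to 9.65% as many reads as *Fabp5* in every liver.

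**Figure D3:**
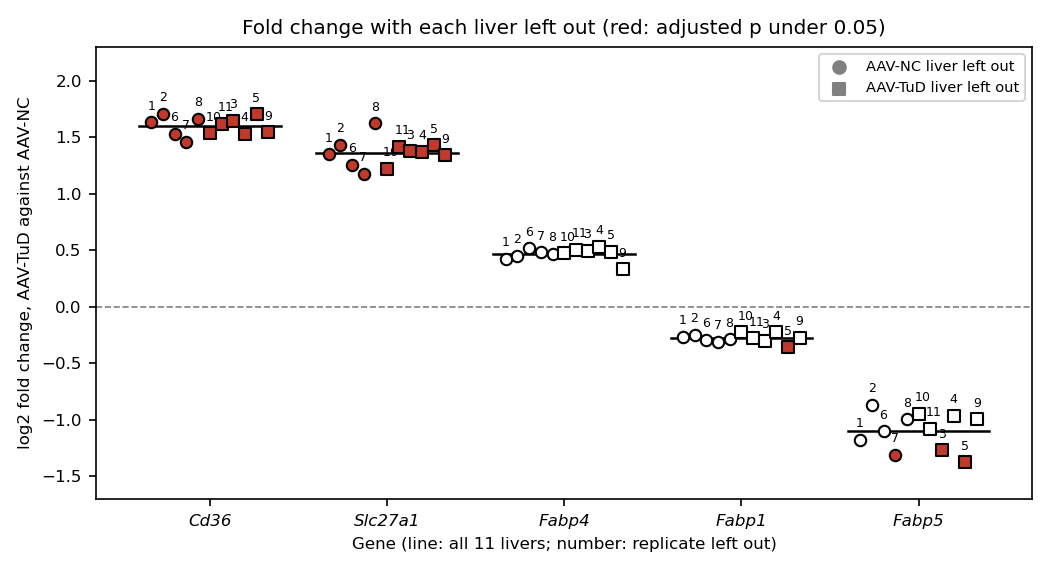
Log2 fold change of 5 genes when each liver is left out in turn (circles, an AAV-NC liver; squares, an AAV-TuD liver; the number is the replicate left out), with a line at the value from all 11 livers; filled red symbols have an adjusted p under 0.05. *Cd36* and *Slc27a1* stay called in all 11, *Fabp5* is called without AAV-NC 7, AAV-TuD 3 or AAV-TuD 5, *Fabp1* without AAV-TuD 5, and *Fabp4* in none.

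Within groups, the 9 genes varied in pairs. As a description over 11 livers that share library preparation, the deviations of log2 CPM from the group means had a Pearson r of 0.84 between *Cd36* and *Slc27a1* and of 0.82 between *Fabp1* and *Fabp5*. When any liver was left out and the filter, scaling and group means were computed again, these ranged from 0.73 to 0.88 and from 0.77 to 0.87. The next was 0.63, between *Slc27a2* and *Slc27a5*. The most negative was -0.46, between *Cd36* and *Slc27a2*, and these 2 genes also differed in sign against log2 *Mup* share (-0.86 and 0.67). *Fabp1* and *Fabp5* lay at 0.59 and 0.33 against the same share. *Slc27a1* lay at -0.66, so that both genes of the first pair fell with a rising share. The r of that pair also rests on 2 to 27 reads of *Slc27a1* a liver. The part of the *Mup* share in these pairs was not tested.

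**Figure D4:**
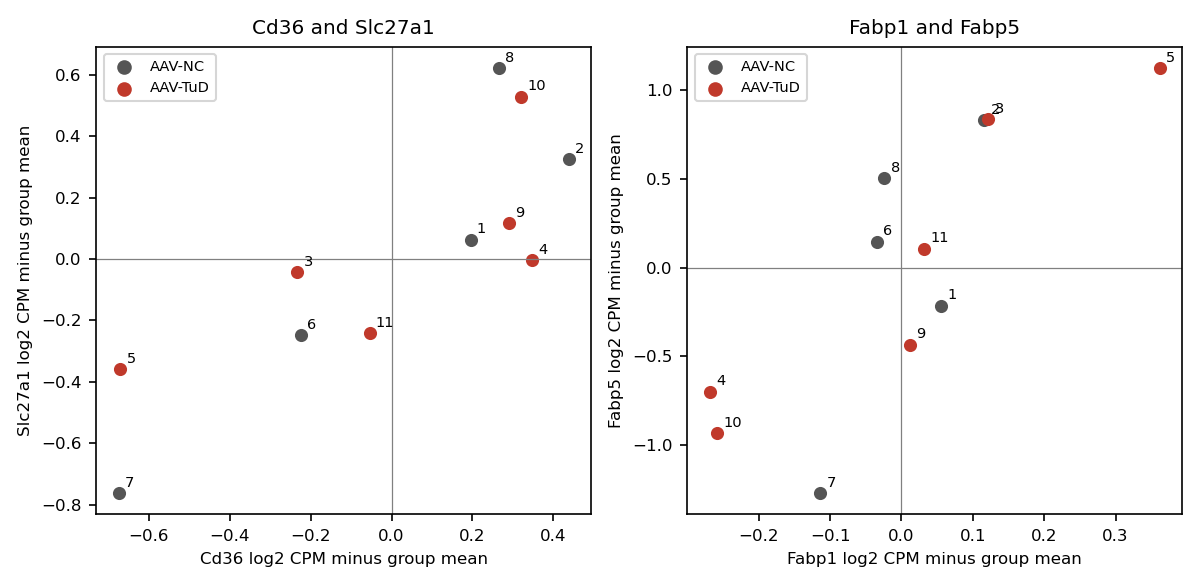
Deviation of log2 CPM from the group mean in each of the 11 livers, *Slc27a1* against *Cd36* (left) and *Fabp5* against *Fabp1* (right), with AAV-NC in grey, AAV-TuD in red and the replicate number beside each point. In the left panel AAV-NC 7 and AAV-TuD 5 lie lowest, and in the right panel AAV-TuD 5 lies highest on both axes.

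The genes that act beside these proteins were followed through lists written by hand. Among 17 receptors and membrane partners of uptake, 1 was higher, *Cavin1*, which shapes caveolae (log2 fold change 0.62 ± 0.15, SE; adjusted p = 0.013 in edgeR), and 1 lower, *Scarb2*, a lysosomal membrane protein of the CD36 family (-0.25 ± 0.069, SE; adjusted p = 0.0298 in edgeR). The list's median was 0.079. With each liver left out, the count called higher in it ran from 1 to 3 and the count called lower from 0 to 1. *Scarb1*, the liver's receptor for high-density lipoprotein in the same family, had a log2 fold change of 0.28 and did not pass the test. The acylation enzyme *Zdhhc5* and the caveolin *Cav1*, both known as partners of CD36 at the membrane, had log2 fold changes of -0.066 and 0.18 and did not pass either.

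Of 8 genes on the list of lipases, enzymes that release fatty acids inside or outside the cell, 2 were higher and 0 lower. *Lpl*, the lipase of circulating triglycerides, rose from 10.2 ± 2.49 CPM (SD, n = 5) to 52.8 ± 14.9 CPM (SD, n = 6), and *Lipa*, the lysosomal lipase, from 110 ± 11.5 to 163 ± 23.1 CPM (SD, n = 5 and 6). Their log2 fold changes were 2.37 and 0.57 (adjusted p = 1.52e-05 and 0.00288 in edgeR), in a list with a median of 0.12. The other 6, among them the liver-secreted *Lipc* and the lipid droplet lipase *Pnpla2*, did not pass the test.

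Downstream of uptake, fatty acids are activated by acyl-CoA synthetases and the products are bound by acyl-CoA binding proteins. Of 10 synthetases, 0 were higher and 2 lower, *Acsl4*, which prefers arachidonic acid (log2 fold change -0.44 ± 0.10, SE; adjusted p = 0.0112 in edgeR), and *Acsm1*, a medium-chain form (-0.25 ± 0.064, SE; adjusted p = 0.02 in edgeR). *Acsl1*, the main long-chain form of liver, had 580 ± 26.6 CPM (SD, n = 5) and 590 ± 108 CPM (SD, n = 6). Of 14 binding proteins and thioesterases, 3 were higher and 0 lower. These were *Acot2*, a mitochondrial thioesterase (log2 fold change 1.86 ± 0.32, SE), *Acot9* (0.92 ± 0.25, SE) and *Dbi*, the acyl-CoA binding protein (0.48 ± 0.095, SE), with adjusted p of 0.00275, 0.0241 and 0.00498 in edgeR. The lists' medians were 0.068 and 0.016.

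Among 20 nuclear receptors and other regulators known to act on the 9 genes, 2 were higher, 1 lower, and the median was -0.02. *Pparg*, known to drive *Cd36* and *Fabp4*, was low in both groups, at 1.02 ± 0.38 CPM (SD, n = 5) with AAV-NC and 2.59 ± 0.75 CPM (SD, n = 6) with AAV-TuD (log2 fold change 1.35; adjusted p = 0.00883 in edgeR). *Pparg* had 19.8 reads a liver on average, and the filter may have set part of its direction. The oxidative stress regulator *Nfe2l2* was higher by 0.69 on the log2 scale (adjusted p = 0.00212 in edgeR). *Hnf4a*, a hepatocyte regulator, was lower (-0.38; adjusted p = 0.015 in edgeR). Other genes listed as targets of PPAR-gamma in lipid-storing liver cells (*Fitm2*, *G0s2*, *Gpd1* and *Plin5*) were called in 0 of 4 cases, at a median of 0.047. *Cidea*, *Cidec*, *Plin4*, *Mogat1* and *Aqp7*, also on this list, were not analysed here. The list leaves out *Lpl*, counted above with the lipases, so its count does not speak for PPAR-gamma targets in general.

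**Figure D5:**
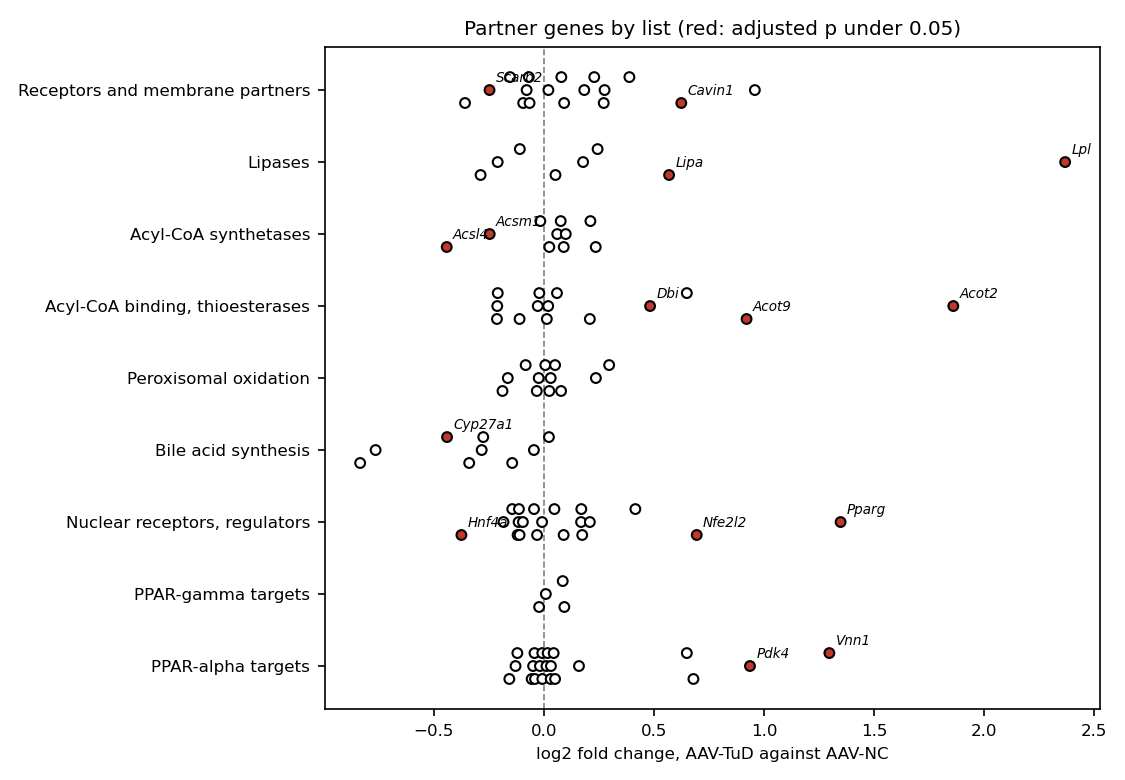
Log2 fold change of AAV-TuD against AAV-NC for the genes of 9 partner lists, 1 point a gene, with genes at an adjusted p under 0.05 filled in red and named. Most genes of each list lie near 0, and *Lpl* at 2.37, *Acot2* at 1.86, *Pparg* at 1.35 and *Vnn1* at 1.30 lie farthest to the right.

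*Cd36* is known to be higher in female than in male mouse liver, and lists of sex-biased genes were therefore read beside it. Of 8 female-biased genes, 3 were higher and 0 lower (*Prom1*, *Ntrk2* and *Fmo2*, with log2 fold changes of 1.66, 2.17 and 0.75), at a median of 0.61. *Prom1* was low with AAV-NC (0.863 CPM), and the filter may have set part of its direction. Of 15 male-biased genes, 1 was higher and 4 were lower, at a median of -0.67. The 3 lower genes with the smallest p were *Cyp2u1*, *Slco1a1* and *Hsd3b5* (-0.83, -1.12 and -1.71), and the higher gene was *Mup20* (0.89). The count of male-biased genes called higher ran from 0 to 2 with each liver left out. The summed level of the male-biased list, which holds *Mup* genes, ran from 22930 to 69490 CPM with AAV-NC and from 12030 to 47950 CPM with AAV-TuD. The part of this in the level of *Cd36* was not tested. Circadian clock genes, which mark the hour of sampling, were called in 0 of 11 cases. *Arntl*, *Npas2*, *Dbp* and *Bhlhe41*, also on the clock list, were not analysed here.

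Hepatocyte markers were abundant, as the label liver requires, with *Alb* and *Apoa1* at 21100 and 6741 CPM in AAV-NC and 28040 and 5859 CPM in AAV-TuD livers. Of 8 hepatocyte markers 0 were higher and 2 lower, while their summed level of 32880 to 39620 CPM with AAV-NC and 42160 to 48120 CPM with AAV-TuD did not overlap. *Alb* made up most of this sum and was not called (adjusted p = 0.0805 in edgeR). The list's median log2 fold change was -0.08, so the sum does not show a rise of hepatocyte markers in general. Within groups this sum had a Pearson r of 0.69 with *Cd36* and 0.68 with *Slc27a1* over the 11 livers, and its part in their values was not tested. Of 11 markers of sinusoidal endothelium, which is known to express *Cd36*, 0 were called, with a summed level of 333 to 369 CPM with AAV-NC and 332 to 353 CPM with AAV-TuD (*Ptprb* and *Kdr* were the most abundant). Of 8 markers of other endothelium, 1 was higher, *Plvap*, and 0 lower, and *Aqp1*, the most abundant, was not called. The count called higher there ran from 0 to 2 with each liver left out.

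Most markers of macrophages, stellate cells and cholangiocytes were higher. Of 10 Kupffer cell markers, 6 were higher and 0 lower, with *C1qb* and *Cd5l* the most abundant over all livers, and their sum ran from 113 to 169 CPM with AAV-NC and from 126 to 341 CPM with AAV-TuD. Of 8 markers of recruited and lipid-associated macrophages, 7 were higher and 0 lower, with *Ctss* and *Lyz2* the most abundant over all livers, and the sums of 57.5 to 76.7 CPM and 86.8 to 193 CPM did not overlap, while *Trem2* and *Itgax* were not analysed here. Of 11 stellate cell markers, 8 were higher and 0 lower, led in abundance by *Dcn* and *Ecm1*, with sums of 244 to 322 CPM and 415 to 537 CPM. Of 5 cholangiocyte markers, 4 were higher and 0 lower, with *Sox9* and *Spp1* the most abundant. *Gpnmb*, counted among the macrophage calls, had 0.0584 CPM with AAV-NC and 2.16 CPM with AAV-TuD. It met the filter through the AAV-TuD livers alone, so that its direction was set by the filter. *Ccr2*, *Cx3cr1*, *Epcam* and *Krt19*, also called, were low with AAV-NC (0.779, 0.736, 0.664 and 0.797 CPM). The filter may have set part of their direction.

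Macrophages are known to express *Cd36*, *Fabp4* and *Fabp5*, so these sums stand beside the values of those genes. Over the 11 livers and within groups, the macrophage sum had a Pearson r of 0.24 with *Cd36*, -0.026 with *Fabp4* and -0.74 with *Fabp5*, and the Kupffer sum of -0.046, 0.013 and -0.61. The sums of other endothelium and of stellate cells likewise had r of -0.72 and -0.59 with *Fabp5*, against 0.19 and 0.38 with *Cd36* and 0.37 and 0.44 with *Fabp4*. *Fabp5* was thus lower, within groups, in the livers with more transcripts of several non-hepatocyte types. This was not particular to *Fabp5*. *Fabp1*, the hepatocyte form, had r of -0.68 with the macrophage sum, -0.40 with the Kupffer sum, -0.62 with other endothelium and -0.59 with stellate cells. The part of these cells in the difference between groups was not tested. Of platelet and erythroid markers, 1 of 7 was higher, *Pf4*, and 0 lower, and *Hba-a1* and *Hba-a2*, the most abundant, were not called. *Pf4* was low with AAV-NC (0.841 CPM), and the filter may have set part of its direction. *Gpm6a*, the mesothelial marker tested, was not called, and the lymphocyte list was not analysed here.

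Of the nearest tested genes on either side of the 9, 2 were called, beside 11.6% of all genes tested. *Gnai1*, a G protein subunit 376 kb from *Cd36*, was higher (log2 fold change 1.2 ± 0.24, SE; adjusted p = 0.00554 in edgeR), from 1.08 to 2.48 CPM, and so was *Pde5a*, a cyclic GMP phosphodiesterase 35.7 kb from *Fabp2* (1.09 ± 0.29, SE; adjusted p = 0.0258 in edgeR), from 1.22 to 2.61 CPM. Both were low with AAV-NC, and the filter may have set part of their direction. *Fabp4* and *Fabp5* share a stretch of chromosome 3, with the tested gene *Gm9833* between them at a log2 fold change of -0.21, while the 2 had log2 fold changes of opposite sign. *Pgls* and *Mvb12a* beside *Slc27a1*, *Gm8991* on the other side of *Cd36*, and the other neighbours tested were not called.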

How the data were processed

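Total RNA of 11 mouse livers was made into QuantSeq 3′ libraries. The authors used BBDuk for trimming, STAR 2.5.3a for alignment to GRCm38 and Rsubread for counting, and deposited the counts of reads per gene without normalization. Every gene of the table has 10 reads or more in 5 livers or more. The submitters' notes also name DESeq2 1.38.3. The annotation, the strand setting and the treatment of reads matching several genes are not given in the sources used here. Groups were taken from the sample titles, and 0 columns of other samples were used. The labels name no batch.

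Genes with over 10 reads in 5 livers or more entered a quasi-likelihood test in edgeR 4.0.16 (R 4.3.3), with TMM factors of 0.667 to 1.24, no covariates and Benjamini-Hochberg adjustment at 0.05, where the study used DESeq2. Log2 CPM used a prior count of 2. No other adjustment was made over the 9 genes. The alternatives were limma-voom 3.58.1 with quality weights, DESeq2 1.42.0, DESeq2 size factors or upper-quartile factors in edgeR, library size alone, TMM without *Mup* genes, no filter, filterByExpr and each liver left out. A fit without livers of high *Mup* share and one with that share as a covariate were chosen after seeing the data. The genes, the lists and the tests were chosen with earlier results of these data known. Named genes are the 10 members, the 3 called genes of smallest p in each direction of a pathway list, and the 2 most abundant markers of a cell type. Also named are the 3 genes most like a called member with a mean of at least 50 reads, neighbours, and genes that overlap a member or share its sequence. Others (*Scarb1*, *Zdhhc5*, *Cav1*, *Lipc*, *Pnpla2*, *Acsl1*, *Fitm2*, *G0s2*, *Gpd1*, *Plin5*, *Gpnmb*, *Ccr2*, *Cx3cr1*, *Epcam*, *Krt19*) were named after their values were seen. Coordinates are those of GENCODE M21 on GRCm38, which held all 9 gene identifiers. The script was tested on simulated data.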

Additional observations from a re-analysis of the deposited data

Results flagged for a closer look

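Of 40 groups of livers examined for a value far from the rest, 4 held one (10%), where chance gives about 1 in 20, or 2. In each, the gap from the highest liver to the next, as a share of the group's range, was above Dixon's critical value. *Fabp4* was highest in AAV-TuD 9, at 10.2 CPM against 6.99 CPM in the next liver (0.693 of the range). AAV-TuD 9 also had the highest summed level of hepatocyte markers, at 48120 CPM (0.884 of the range). The share of reads on *Mup* genes was highest in AAV-NC 7, at 38.6% (0.804 of the range), as was the summed level of the male-biased list, which holds *Mup* genes, at 69490 CPM (0.837 of the range).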

How the results depend on the processing

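*Cd36* was called higher under every alternative. So was *Slc27a1* where it was tested, which is no sign of stability in a gene that meets the filter through the AAV-TuD livers alone. Without the 3 livers of high *Mup* share, *Slc27a1* no longer met the filter, and 1 of the 9 genes was called higher and 2 lower. The count called lower was 1 with limma-voom and 1 with library size alone (*Fabp5* each time; -1.21 and -1.02, adjusted p = 0.0443 and 0.0138), and ran from 0 to 2 with each liver left out. Library size alone moved the median of all genes to 0.23, called 71 genes lower, with 95.1% of calls higher against 62.6%, called *Fabp4* (0.71; adjusted p = 0.0366) and gave *Slc27a5* 0.22. The log2 fold change of *Slc27a5* was 0.014 without the 3 livers and ran from -0.045 to 0.038 with each liver left out, positive without AAV-NC 1 (0.038), AAV-TuD 3 (0.0074) or AAV-TuD 4 (0.023). Of all genes, 1543 were called, and 1012 to 1829 with each liver left out, the fewest without AAV-TuD 4, with 337 to 714 lower and 675 to 1115 higher. The cause of these shifts was not tested. Of 572 list counts under the alternatives, 507 stayed within 1.5 times and 65 did not. Within-group r ran from 0.732 to 0.877 for *Cd36* and *Slc27a1* and from 0.767 to 0.867 for *Fabp1* and *Fabp5* with each liver left out and the filter, scaling and group means computed again. No paired analysis was possible because no replicate number occurs in both groups. Depth limits *Slc27a1* most, at 2 to 27 reads a liver.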
